A study of Mus musculus with 18 samples.

Results

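The metabotropic glutamate receptors are G protein-coupled receptors through which released glutamate tunes excitability and transmitter release. Of this family, 6 genes were described here, Grm2, Grm3, Grm4, Grm5, Grm7 and Grm8, chosen by gene symbol from the 30905 genes of the count matrices. Group I receptors, here Grm5, couple to Gq and phospholipase C and sit mainly on the postsynaptic side, where Homer and Shank proteins hold them at the edge of the synapse. Group II (Grm2, Grm3) and group III (Grm4, Grm7, Grm8) receptors couple to Gi/o, lower cyclic AMP and act mostly as presynaptic brakes on release. Grm3 is also a receptor of astrocytes, which take up glutamate, and it responds to N-acetylaspartylglutamate (NAAG).

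RNA of single nuclei had been counted by a droplet-based 3′ method in 9 Kun Ming mice aged 8 weeks, in the hippocampus (abbreviated Hip) and the prefrontal cortex (abbreviated PFC) of every mouse, giving 18 libraries. The 3 germ-free mice (GF) were kept in isolators, the 3 mice free of specific pathogens (SPF) carried a microbiota, and the last 3 were germ-free mice colonized later (CGF). The CGF mice had shared an isolator with SPF mice from 4 to 8 weeks of age, and SPF mice were raised in a different setting from the others. No genotype, drug or transgene was part of the design, and mice go by their numbers in the labels (GF 5 to 7, CGF 17 to 19, SPF 30 to 32).

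Of 138000 nuclei, 106968 (77.5%) fell into cell types that were present in all 9 mice of a region, 15 types in Hip and 18 in PFC, of which 10 were shared. The files carry no annotation, so types were rebuilt from clusters named by markers, and each name stands for cells like that type. Mid-layer Rorb neurons of PFC had 0 of their 6 markers highest in their own type and 4 at 2 or more times the median type, led by Rorb at 456 CPM. CPM are counts of unique molecular identifiers (UMIs) scaled to the same total in every library and type. Cck/Sncg interneurons of Hip had 2 of 5 highest and 3 at 2 or more times the median type. In PFC, layer 5/6 intratelencephalic neurons had 1 of 6 highest and layer 5 Fezf2 neurons 2 of 7, with 5 and 7 at 2 or more times the median type. These names are the less certain ones. In Hip, the Lamp5 interneurons of GF 6 and CGF 19 included a cluster of 44 and 52 nuclei led by Cpa6 that was not found in the other 7 mice, and in PFC 62.0% of the nuclei of CGF 17 reached a named type against 79.9% to 95.5% in the other libraries. Pairs of libraries shared 6 to 29 cell barcodes, at most 0.366% of the smaller library.

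The libraries differed along the lines of the groups, and several results below stand beside these values. PFC libraries held 59126586 to 71463928 UMIs in GF mice against 22213863 to 26151503 in CGF and 20336250 to 26949210 in SPF mice, while Hip libraries held 49067853 to 63217083 in all groups. Genes longer than 100 kb took 49.3% to 52.8% of the UMIs in GF Hip libraries against 61.7% to 64.3% in CGF and 60.1% to 62.7% in SPF, and in PFC they took 54.6% to 56.3% in GF against 47.6% to 52.7% in CGF and 49.7% to 51.4% in SPF. Mitochondrial UMIs were 0.359% to 0.594% in GF PFC against 1.28% to 3.22% in the other PFC libraries, and in Hip, the other way round, 0.645% to 1.096% in GF against 0.0770% to 0.471% in the others. Genes annotated as antisense took 1.55% to 1.79% of the UMIs in GF PFC libraries, against 0.458% to 0.561% in the other PFC libraries and 1.15% to 1.81% in Hip. Whether GF PFC libraries were prepared or counted in another way, such as with introns or strand, is not given in the sources used here, and this bears on every difference of GF mice in PFC. Since every GF library of a region shares these properties, the group and the library cannot be told apart.

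The members differ in size and base composition, which matters beside these library properties. On GRCm38, Grm5 (ENSMUSG00000049583) spans 551 kb at chr7:87584168-88134907 on the plus strand, Grm7 (ENSMUSG00000056755) 922 kb at chr6:110645581-111567230 on the plus strand and Grm8 (ENSMUSG00000024211) 860 kb at chr6:27275119-28135178 on the minus strand, between percentiles 99.4 and 99.8 of gene length. Grm3 (ENSMUSG00000003974) spans 240 kb at chr5:9485541-9725170 on the minus strand and Grm4 (ENSMUSG00000063239) 99.0 kb at chr17:27422387-27521403 on the minus strand. Grm2 (ENSMUSG00000023192) is short, 12.99 kb at chr9:106643095-106656082 on the minus strand, at percentile 50.6 of length. Its transcripts have a GC content of 56.9%, and those of Grm4 61.7%, percentile 98.1, whereas Grm5 and Grm8 have 42.5% and 41.9%.

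Promoters are shown for both group II genes, because in PFC they moved in opposite directions between GF and SPF mice. Each runs 5′ to 3′ from 250 bases before to 50 bases after the RefSeq start on GRCm38.p6, Grm2 at chr9:106656060-106656359 and Grm3 at chr5:9725303-9725602, both on the minus strand. Capitals mark matches, on either strand, to the neuron-restrictive silencer core TTCAGCACC, to the SP1 box GGGCGG or to the EGR site GCGGGGGCG.
Grm2: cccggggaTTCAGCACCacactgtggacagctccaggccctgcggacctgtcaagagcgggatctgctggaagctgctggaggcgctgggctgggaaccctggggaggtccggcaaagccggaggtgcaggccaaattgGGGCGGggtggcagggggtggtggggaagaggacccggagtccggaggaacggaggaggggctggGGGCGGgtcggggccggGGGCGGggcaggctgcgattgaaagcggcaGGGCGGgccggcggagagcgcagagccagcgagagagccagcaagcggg
Grm3: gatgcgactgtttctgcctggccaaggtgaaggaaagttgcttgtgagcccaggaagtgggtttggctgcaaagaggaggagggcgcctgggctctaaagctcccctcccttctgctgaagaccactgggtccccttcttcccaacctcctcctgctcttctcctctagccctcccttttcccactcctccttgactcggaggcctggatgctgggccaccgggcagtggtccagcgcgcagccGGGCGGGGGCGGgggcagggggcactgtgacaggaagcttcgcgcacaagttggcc

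The Grm2 window holds 1 silencer core, a match found in 122 of 32851 RefSeq promoters (0.371%), and 4 SP1 boxes, found in 35.7% of promoters. The Grm3 window holds 2 SP1 boxes and 1 EGR match that overlaps both of them, and 2.91% of promoters hold an EGR match. With 72.0% GC the Grm2 window lay at percentile 93.1 of all promoters, and the Grm3 window at 63.7% GC and percentile 79.1. These matches describe the letters only. RefSeq promoters of Grm7 and Grm8 were also matched, and Grm4 and Grm5 had no entry in the table used.

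Levels in CPM were taken per library from UMIs summed over all nuclei of a type, and each gene was compared with itself across types. Each member had its own distribution, shown in the map of mean levels: Grm5 in most neurons and in oligodendrocyte precursor cells (OPC), Grm2 in dentate gyrus (DG) granule and mid-layer Rorb neurons, Grm3 in astrocytes and oligodendrocytes, Grm4 in near-projecting neurons and interneurons, Grm7 in most neurons except 3 interneuron types, and Grm8 in Vip interneurons and deep-layer neurons.

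**Figure D1:**
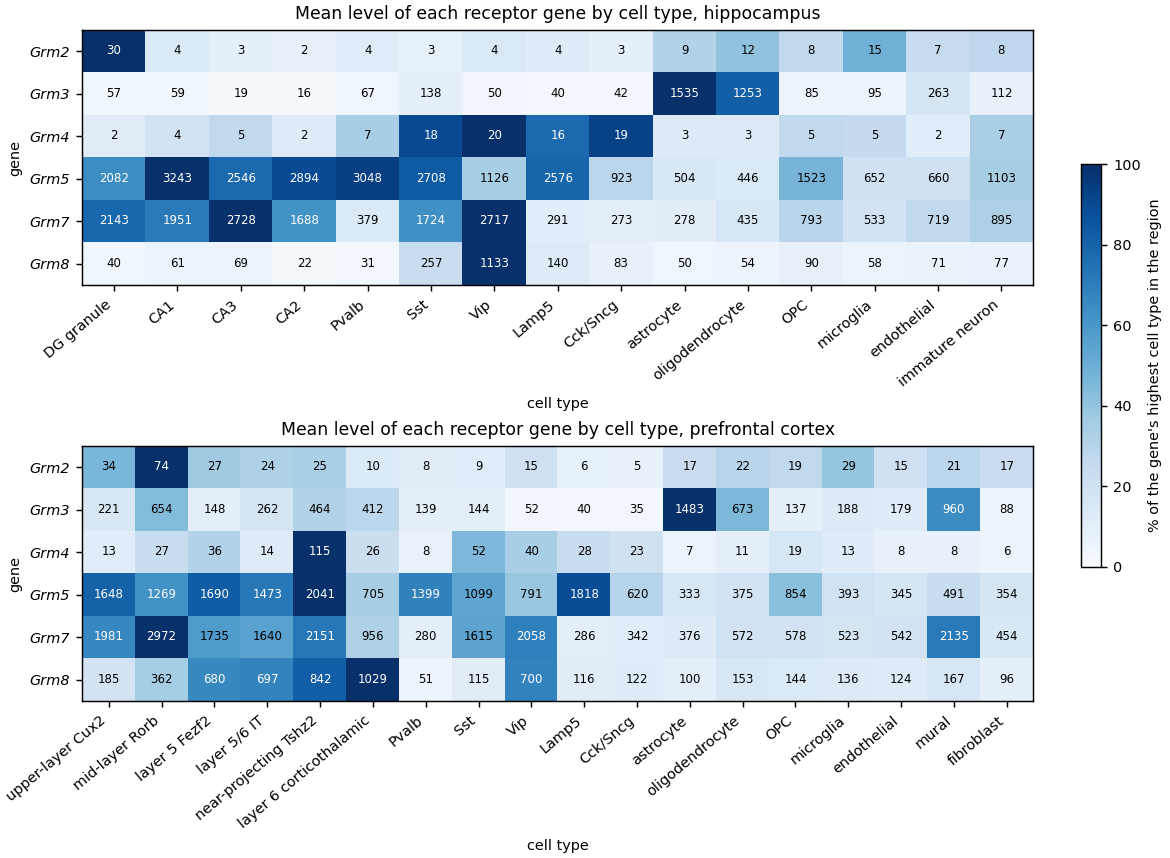
Mean level of the 6 receptor genes (rows) in each cell type (columns) of Hip (top) and PFC (bottom); the printed number is the mean CPM of 9 mice and the colour is the percent of that gene's highest type in the region. The darkest cells of Grm8 are Vip interneurons in Hip (1133 CPM) and layer 6 corticothalamic neurons in PFC (1029 CPM), and those of Grm3 are astrocytes in both regions, in PFC over all 9 mice but not in SPF mice alone.

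Grm5, a postsynaptic group I receptor, was highest in CA1 neurons of Hip at 3243 ± 419 CPM (SD, n = 9 mice). Pvalb interneurons followed at 3048 ± 528 CPM and CA2 neurons at 2894 ± 448 CPM. These neighbours differed by less than 0.3 SD (here and below the gap of 2 means over the root of the sum of their squared SDs), and CA1 was above Pvalb interneurons in 7 of 9 mice, so the order at the top did not hold in every mouse. With nuclei gated one by one on their own markers, Sst interneurons led instead of CA1 neurons. A wider step lay between CA3 neurons at 2546 ± 381 CPM and DG granule neurons at 2082 ± 239 CPM, which were lower in 9 of 9 mice. Vip and Cck/Sncg interneurons were lower at 1126 ± 162 and 923 ± 84.8 CPM. In PFC, near-projecting Tshz2 neurons led at 2041 ± 509 CPM and layer 6 corticothalamic neurons were the lowest excitatory type at 705 ± 222 CPM.

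Among non-neuronal types, Grm5 stood out in OPC, the dividing precursors of oligodendrocytes, at 1523 ± 183 CPM in Hip and 854 ± 105 CPM in PFC. Across the 9 Hip mice these values ran from 1210 to 1797 CPM, and the other glia had mean levels of 446 to 652 CPM. In Hip, Lamp5 interneurons had 3302 CPM of Grm5 in GF 6 and 4523 CPM in CGF 19 against 1843 to 2569 CPM in the other 7 mice. Grm7 and Grm8 stood apart in the same 2 libraries, Grm7 at 572 and 806 CPM against 64.0 to 261 CPM and Grm8 at 354 and 510 CPM against 35.2 to 78.5 CPM. Without these 2 libraries the Lamp5 means were 2194 CPM for Grm5, 177 CPM for Grm7 and 56.0 CPM for Grm8, against 2576, 291 and 140 CPM with them.

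Grm2, a presynaptic autoreceptor on glutamatergic terminals, was highest in DG granule neurons of Hip at 30.5 ± 6.06 CPM, 1.81 SD above the next type and higher in 9 of 9 mice. That next type was microglia at 15.0 ± 6.07 CPM, followed by oligodendrocytes at 12.3 ± 4.44 CPM and astrocytes at 9.49 ± 2.79 CPM, resting on 69, 186 and 190 UMIs. These glial levels lay within the range of neuronal UMIs in the same glia, given below, and are not read as expression of those cells. CA1 and CA3 neurons had 4.24 ± 1.31 and 2.71 ± 0.8 CPM. In PFC the highest type was mid-layer Rorb neurons at 74.0 ± 44.3 CPM, above upper-layer Cux2 neurons at 34.2 ± 19.6 CPM in 9 of 9 mice. The large SD in PFC reflects the groups, as given below. Interneurons were low in both regions, and all libraries together held 6668 UMIs of Grm2 in Hip and 8431 in PFC, so its values in small types rest on few counts.

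Grm3, the group II receptor shared by neurons and glia, was highest over all mice in astrocytes at 1535 ± 220 CPM in Hip and 1483 ± 732 CPM in PFC. The PFC order differed by group, since astrocytes led mural cells in GF mice but in SPF mice mural cells had 1145 ± 239 CPM and astrocytes 1009 ± 58.7 CPM. Hip oligodendrocytes had 1253 ± 156 CPM, 4.84 SD above the next type. In PFC, mural cells of the vessel wall had 960 ± 323 CPM and oligodendrocytes 673 ± 363 CPM. Microglia were at 95.0 ± 63.7 CPM in Hip and 188 ± 78.1 CPM in PFC, 6.19% and 12.7% of the astrocyte level. Among cortical excitatory neurons the level ran from 148 ± 34.5 CPM in layer 5 Fezf2 neurons to 654 ± 135 CPM in mid-layer Rorb neurons, while Hip principal neurons stayed between 16.4 and 58.9 CPM.

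Grm4, a group III receptor of presynaptic terminals, had 5450 UMIs in all Hip libraries and 7019 in all PFC libraries, so small types rest on few counts here too. Near-projecting Tshz2 neurons of PFC had 115 ± 35.2 CPM, 1.54 SD above Sst interneurons at 51.9 ± 20.2 CPM and higher in 9 of 9 mice. In Hip the levels of Vip (20.2 ± 6.99 CPM), Cck/Sncg (18.7 ± 4.53 CPM), Sst (18.2 ± 9.26 CPM) and Lamp5 (15.6 ± 6.77 CPM) interneurons did not differ beyond their spread, with gaps of at most 0.222 SD between neighbours in this order. All 4 were above Pvalb interneurons at 6.97 ± 3.27 CPM, and DG granule neurons had 2.28 ± 0.867 CPM.

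Grm7, the group III receptor of the active zone, was highest in CA3 neurons at 2728 ± 435 CPM and Vip interneurons at 2717 ± 585 CPM in Hip, which differed by 0.0150 SD. Its levels parted the interneurons. Sst interneurons had 1724 ± 420 CPM in Hip and 1615 ± 270 CPM in PFC, whereas Pvalb interneurons had 379 ± 102 and 280 ± 68.3 CPM, and Cck/Sncg interneurons 273 ± 93.6 and 342 ± 62.5 CPM. Mid-layer Rorb neurons led in PFC at 2972 ± 490 CPM, higher than near-projecting neurons in 9 of 9 mice. Mural cells of PFC had 2135 ± 446 CPM, on a level with the near-projecting neurons at 2151 ± 452 CPM, while endothelial cells had 542 ± 131 CPM.

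Grm8, another presynaptic group III receptor, was concentrated in Vip interneurons of Hip at 1133 ± 127 CPM, and the next type, Sst interneurons, had 257 ± 152 CPM. The gap was 4.43 SD and present in 9 of 9 mice. In PFC, layer 6 corticothalamic neurons led at 1029 ± 120 CPM, before near-projecting Tshz2 neurons at 842 ± 142 CPM. Vip interneurons (700 ± 114 CPM), layer 5/6 intratelencephalic neurons (697 ± 105 CPM) and layer 5 Fezf2 neurons (680 ± 99.7 CPM) did not differ beyond their spread. Upper-layer Cux2 neurons had 185 ± 43.4 CPM and Pvalb interneurons 50.8 ± 13.7 CPM.

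Glia also carried UMIs of neuronal genes, which sets how low levels there can be read. Of 5 genes that mark excitatory neurons, Arpp21 and Camk2a stood in microglia of SPF Hip at 20.6% and 29.6% of their level in excitatory neurons, Sv2b at 49.4%, Slc17a7 at 173.5% and Nrgn at 282%. In microglia of SPF PFC they ran from 40.9% for Camk2a to 114% for Nrgn, so the 5 markers give no single background level. Grm5, Grm7 and Grm8 in SPF microglia were at 27.0%, 23.5% and 20.8% of the excitatory level in Hip and at 41.35%, 40.5% and 31.6% in PFC, within or below the range of the 5 markers. Grm2 in SPF microglia was at 124% in Hip and 83.5% in PFC, also within that range. Levels of Grm2, Grm5, Grm7 and Grm8 in microglia, astrocytes and oligodendrocytes are therefore not read as expression of those cells.

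Grm5 in SPF OPC was at 58.5% in Hip, above Camk2a (17.15%), Sv2b (28.2%) and Arpp21 (44.5%) and below Slc17a7 (89.7%) and Nrgn (149.5%). In PFC it was at 80.7%, above 4 markers and below Nrgn at 90.35%. In all 3 groups and both regions Grm5 in OPC lay above Camk2a and Sv2b and below Nrgn, so whether it stands above the background in OPC depends on the marker. Grm7 in mural cells of PFC was at 108% in SPF and 132% in CGF mice, above all 5 markers, the highest of which was Nrgn at 80.8% and 54.5%. In GF mice it was at 90.7%, below Slc17a7 at 106% and Nrgn at 248%.

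The share of neuronal UMIs in glia moved with the groups, but not alike for all markers. In PFC astrocytes, Camk2a was at 10.6% of the excitatory level in GF mice, 35.7% in CGF and 38.9% in SPF mice, and Grm7 at 5.33%, 27.1% and 29.7%. In PFC microglia, Camk2a was at 15.4% in GF, 49.3% in CGF and 40.9% in SPF mice, and Grm5 at 10.4%, 42.9% and 41.35%. In Hip astrocytes GF mice were again lowest, with smaller steps, Camk2a at 11.9%, 19.6% and 18.4% and Grm5 at 12.9%, 21.6% and 21.4%. Nrgn went the other way in PFC, at 205% of the excitatory level in GF, 82.5% in CGF and 85.1% in SPF astrocytes and at 327%, 108% and 114% in microglia, and Slc17a7 in astrocytes was at 63.1%, 51.9% and 58.3%.

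**Figure D2:**
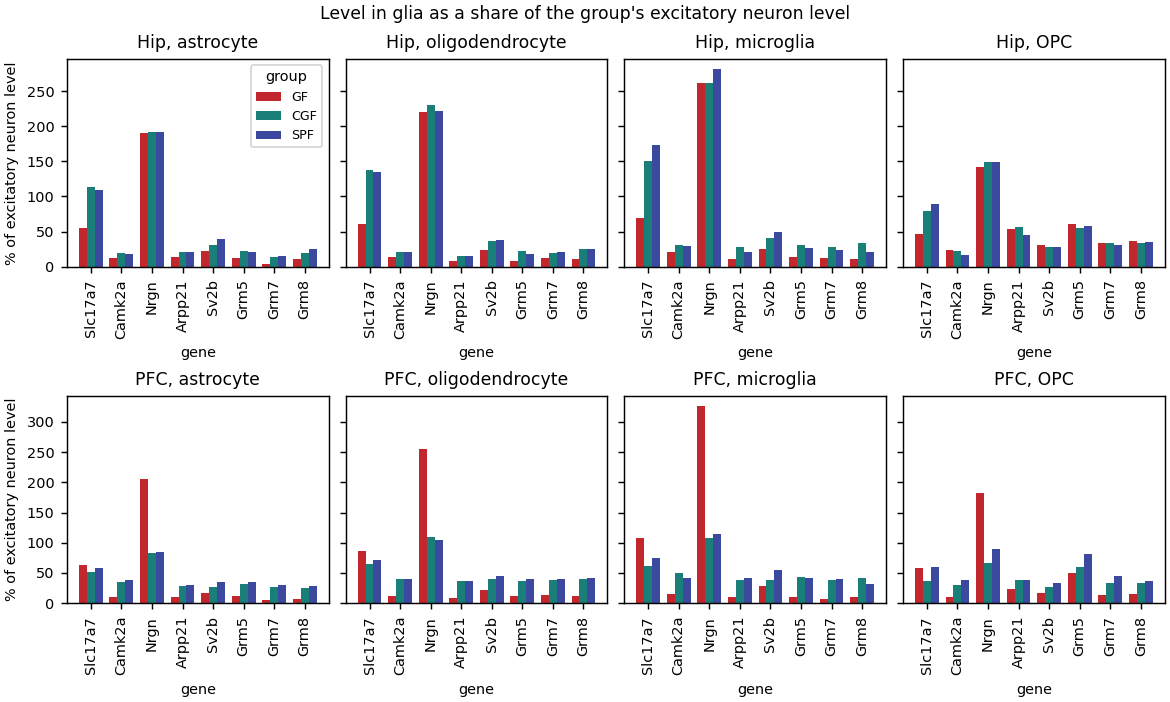
Level of 5 excitatory marker genes (Slc17a7, Camk2a, Nrgn, Arpp21, Sv2b) and 3 receptor genes in 4 glial types of Hip (top) and PFC (bottom), in percent of the same group's mean level in excitatory neurons; bars come from the mean of 3 mice. In PFC astrocytes, oligodendrocytes and microglia Camk2a, Arpp21, Sv2b and the 3 receptors are lower in GF than in CGF and SPF mice, while Slc17a7 and Nrgn are higher in GF, Nrgn at up to 327%.

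The comparison of GF with SPF mice asks what the absence of microbes goes along with. Each member was tested in each type where it passed a filter on low counts, giving 90 of 108 possible tests in PFC and 73 of 90 in Hip. A member that passed through 1 group only would have had to differ, so counts refer to the tests made. In PFC, 62 of 90 tests passed the threshold of 0.05 on the adjusted P (68.9%), 30 higher and 32 lower in GF. Over all genes and types of PFC, 45.5% of the tests passed, 23% higher and 22.5% lower. With nuclei gated one by one on their own markers, 49 of 83 tests passed, 31 higher and 18 lower, beside 45.1% over all genes. The map of fold changes shows each member by type.

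**Figure D3:**
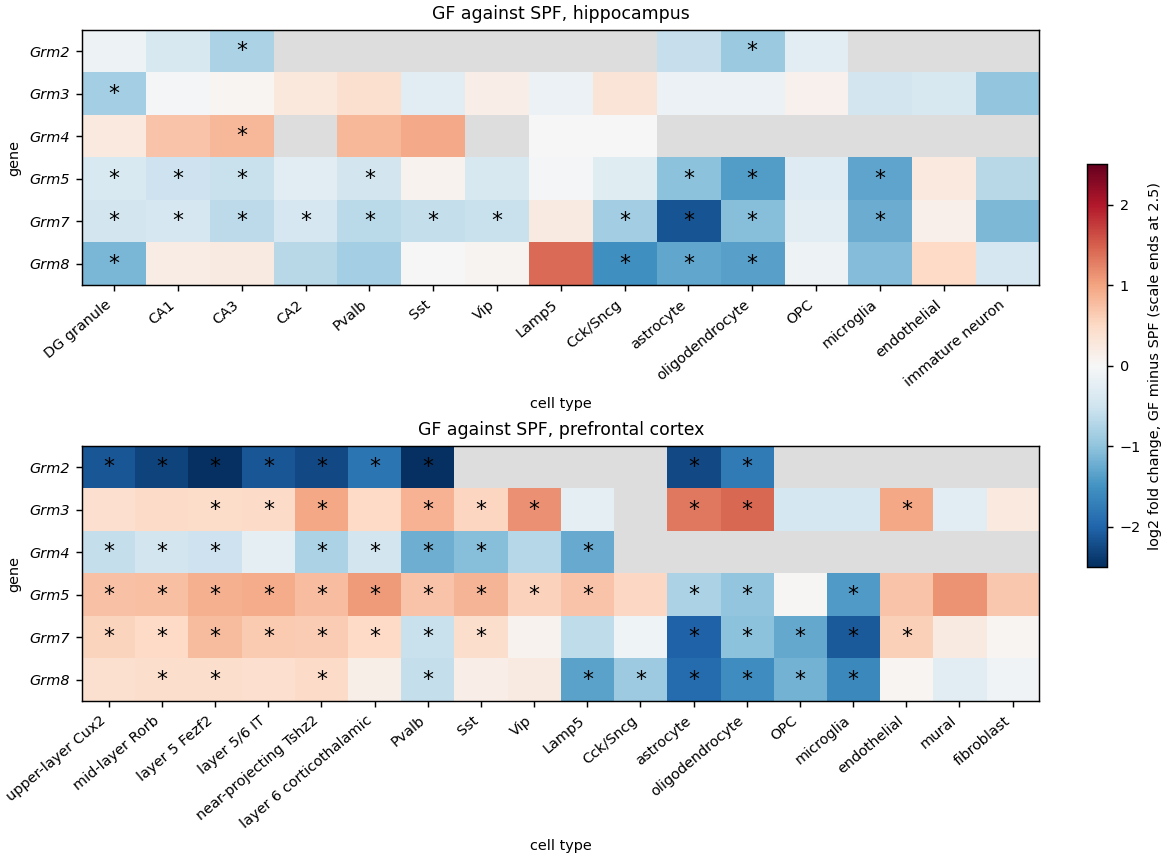
Log2 fold change of GF against SPF mice for each receptor gene (rows) and cell type (columns) in Hip (top) and PFC (bottom), red higher and blue lower in GF, with an asterisk where the edgeR test passed and grey where the gene was not tested. Grm2 is blue with an asterisk in each of its 9 PFC types, 4 of which had no GF library above the count filter. Grm5 is red in PFC neurons and blue in Hip neurons such as CA1.

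Grm2 was lower in GF than SPF mice in 9 of 9 PFC types tested. In 4 of them (near-projecting neurons, Pvalb interneurons, astrocytes and oligodendrocytes) no GF library reached the count filter, so these were tested only through CGF and SPF mice and say little by their direction. The other 5 were excitatory neurons with at least 1 GF library above it. Without the filter, 13 of 18 types were lower and 0 higher, and over all genes of PFC 23% of the tests passed then. In mid-layer Rorb neurons its level was 21.5, 20.7 and 21.0 CPM in the GF mice, 79.1, 101 and 63.2 CPM in the CGF mice and 113, 120 and 126 CPM in the SPF mice. The 3 groups did not overlap, with GF lowest and SPF highest, though CGF against SPF did not pass the test. GF differed from SPF by a log2 fold change of -2.31 ± 0.17 (SE; adjusted P = 3.4e-08). Upper-layer Cux2 neurons had 10.4, 12.5 and 9.83 CPM in GF, 29.1, 50.8 and 35.8 CPM in CGF and 46.2, 56.8 and 56.3 CPM in SPF mice, so the GF values again lay below all others. The log2 fold change there was -2.14 ± 0.21 (adjusted P = 2.4e-06). In layer 5 Fezf2 neurons it was -2.5 ± 0.24 and in layer 6 corticothalamic neurons -1.82 ± 0.28. In SPF mice the mean levels of Rorb and Cux2 neurons, 119.9 and 53.1 CPM, lay above the 25.95 to 49.8 CPM of astrocytes, oligodendrocytes and microglia, whereas those of the other types tested lay within or below that range.

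An alternative fit took out how each library's counts depend on the length and GC content of genes, called the length and GC correction here. Under it, 44 of the 90 PFC tests passed instead of 62, 20 higher and 24 lower, while over all genes the share went from 45.5% to 43.6%. Grm5 then passed in 12 types instead of 13 and Grm7 in 9 instead of 13. Grm2 was still lower in 9 of 9 PFC types tested, which include the 4 without a GF library above the count filter. Grm2 overlaps Gm28111 on the opposite strand, whose UMIs numbered 24 to 43 in GF PFC libraries, 0 to 2 in the other PFC libraries and 47 to 93 in Hip libraries, against 573 to 1473 UMIs of Grm2 in PFC libraries. Whether counting used strand is not given in the sources used here, so reads of the 2 genes may not be fully told apart. The lower Grm2 in PFC astrocytes (log2 fold change -2.25) and oligodendrocytes (-1.77, lost without SPF 31) stands beside the lower Camk2a and Arpp21 and higher Nrgn of GF glia above, and their part in it was not tested.

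Grm3 was higher in GF mice in 9 of 17 PFC types and lower in 0. Astrocytes had 2196, 2538 and 2604 CPM in GF, 960, 1096 and 927 CPM in CGF and 991, 961 and 1074 CPM in SPF mice. The GF mice thus lay above all 6 other mice, whereas CGF and SPF overlapped. The log2 fold change of GF against SPF was 1.32 ± 0.16 (adjusted P = 4.0e-07). Oligodendrocytes had 1023, 1330 and 1058 CPM in GF, 363, 579 and 414 CPM in CGF and 382, 456 and 457 CPM in SPF mice, a log2 fold change of 1.44 ± 0.19 (adjusted P = 5.1e-07). Mural cells, the other type rich in Grm3, had 1303, 642 and 795 CPM in GF and 1379, 901 and 1155 CPM in SPF mice, which overlapped.

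Neurons of PFC also had more Grm3 in GF mice in 6 types, among them near-projecting Tshz2 neurons (log2 fold change 0.96 ± 0.14), Pvalb interneurons (0.87 ± 0.13) and Vip interneurons (1.15 ± 0.34). The smaller of these differences were less stable. The calls in layer 5 Fezf2 neurons, Sst interneurons, layer 5/6 intratelencephalic neurons and endothelial cells were lost in 5, 4, 3 and 3 of the 9 fits that left out 1 mouse. With the length and GC correction, 7 of the 17 tests passed, all higher. Some of these neurons had little Grm3. Layer 5 Fezf2 neurons had a lower mean over all mice than PFC microglia, as given above. In Vip interneurons, 2 CGF libraries and all GF libraries reached the count filter of 28.8 CPM. The part of Grm3 UMIs from other cells in the neuronal rises was not tested. The neuronal rises, among them those in Vip interneurons and layer 5 Fezf2 neurons, are given as values only. Whether the expression of these neurons themselves changed was not tested.

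Grm5 was higher in GF mice in 10 of 18 PFC types, all neuronal, and lower in 3, all glial types whose Grm5 is not read as their own expression. Near-projecting Tshz2 neurons had 2844, 2365 and 2819 CPM in GF, 1765, 1890 and 1560 CPM in CGF and 1732, 1532 and 1865 CPM in SPF mice. GF values lay above the other 6, and the log2 fold change to SPF was 0.77 ± 0.14 (adjusted P = 6.4e-05). Among the types called, layer 6 corticothalamic neurons had the largest rise, from 574, 391 and 601 CPM in SPF to 957, 991 and 1005 CPM in GF mice, a log2 fold change of 1.06 ± 0.15 (adjusted P = 4.6e-05). Pvalb interneurons had 1810, 1681 and 1784 CPM in GF and 1237, 1057 and 1188 CPM in SPF mice, and Sst interneurons 1276, 1399 and 1629 CPM against 830, 783 and 1005 CPM. Both rose, by log2 fold changes of 0.71 ± 0.12 and 0.85 ± 0.15.

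In OPC of PFC, the GF mice had 887, 993 and 843 CPM and the SPF mice 950, 960 and 846 CPM, which overlapped. The falls of Grm5 in microglia (-1.41 ± 0.21), oligodendrocytes (-0.99 ± 0.21) and astrocytes (-0.79 ± 0.17) moved with Camk2a and Arpp21 in those types and against Nrgn, and the part of neuronal UMIs in it was not tested. With nuclei gated one by one on their own markers, 1 type was lower instead of 3, microglia at -0.63, while astrocytes and oligodendrocytes turned direction to 0.000805 and 0.30, and 12 types were higher.

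Grm7 was higher in GF mice in 8 and lower in 5 of 18 PFC types. The higher types were the 6 excitatory types, Sst interneurons and endothelial cells. Mid-layer Rorb neurons had 3617, 3384 and 3578 CPM in GF, 2766, 2765 and 2062 CPM in CGF and 2774, 2840 and 2963 CPM in SPF mice, a log2 fold change of 0.50 ± 0.15 to SPF (adjusted P = 0.00995). Its largest rise was in layer 5 Fezf2 neurons at 0.79 ± 0.15, while the calls in endothelial cells and Sst interneurons were kept in 5 and 12 of 16 alternatives. Pvalb interneurons went the other way at -0.56 ± 0.14, but their SPF mean of 329 CPM was below the 540 to 738 CPM of SPF astrocytes, oligodendrocytes and microglia. OPC had 308, 297 and 400 CPM in GF, 631, 483 and 596 CPM in CGF and 659, 850 and 978 CPM in SPF mice, without overlap between GF and SPF, and a log2 fold change of -1.28 ± 0.18 (adjusted P = 6.6e-07). With nuclei gated one by one this was -0.11 and no longer called. Camk2a in the same OPC was at 95.2 CPM in GF and 420 CPM in SPF mice, and Nrgn at 936 and 549 CPM. Grm7 also fell in astrocytes (-2.03 ± 0.18) and microglia (-2.09 ± 0.27), where Camk2a was lower and Nrgn higher in GF as well.

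Grm4 was lower in GF mice in 8 of 10 PFC types, of which Lamp5 and Pvalb interneurons had no GF library above the count filter. Near-projecting Tshz2 neurons had 59.2, 83.9 and 79.5 CPM in GF, 129, 110 and 153 CPM in CGF and 167, 125 and 123 CPM in SPF mice. The GF mice lay below the other 6, and the log2 fold change was -0.79 ± 0.19 (adjusted P = 0.0016). Sst interneurons had 41.6, 25.8 and 30.9 CPM in GF and 79.2, 86.8 and 54.3 CPM in SPF mice, a log2 fold change of -1.06 ± 0.22 (adjusted P = 3.8e-04). These 2 calls held with each mouse left out, whereas those in the other 6 types were each lost without at least 2 of the mice in turn. With the length and GC correction, 0 of the 10 tests passed and the median went from -0.66 to -0.11.

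Grm8 was higher in GF mice in 3 and lower in 7 of 18 PFC types. Layer 6 corticothalamic neurons, its leading type, had 1137, 899 and 1177 CPM in GF and 1025, 1028 and 1140 CPM in SPF mice, which overlapped. The 3 rises were in near-projecting Tshz2 (0.49 ± 0.13), layer 5 Fezf2 (0.44 ± 0.16) and mid-layer Rorb neurons (0.44 ± 0.18), and 0 types were higher with the length and GC correction. The calls in layer 5 Fezf2 and mid-layer Rorb neurons were kept in 11 and 8 of 16 alternatives. Falls were found in Lamp5 (-1.34 ± 0.29), Cck/Sncg (-0.91 ± 0.34, kept in 5 of 16 alternatives) and Pvalb interneurons (-0.60 ± 0.18, lost without SPF 30). The SPF means of these 3 types, 173, 183 and 66.5 CPM, lay within or below the 145 to 205 CPM of Grm8 in SPF astrocytes, microglia and oligodendrocytes, so these falls are not read as changes of their own expression. Grm8 also fell in 4 glial types, where Camk2a and Arpp21 were lower and Nrgn higher, and their part was not tested.

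**Figure D4:**
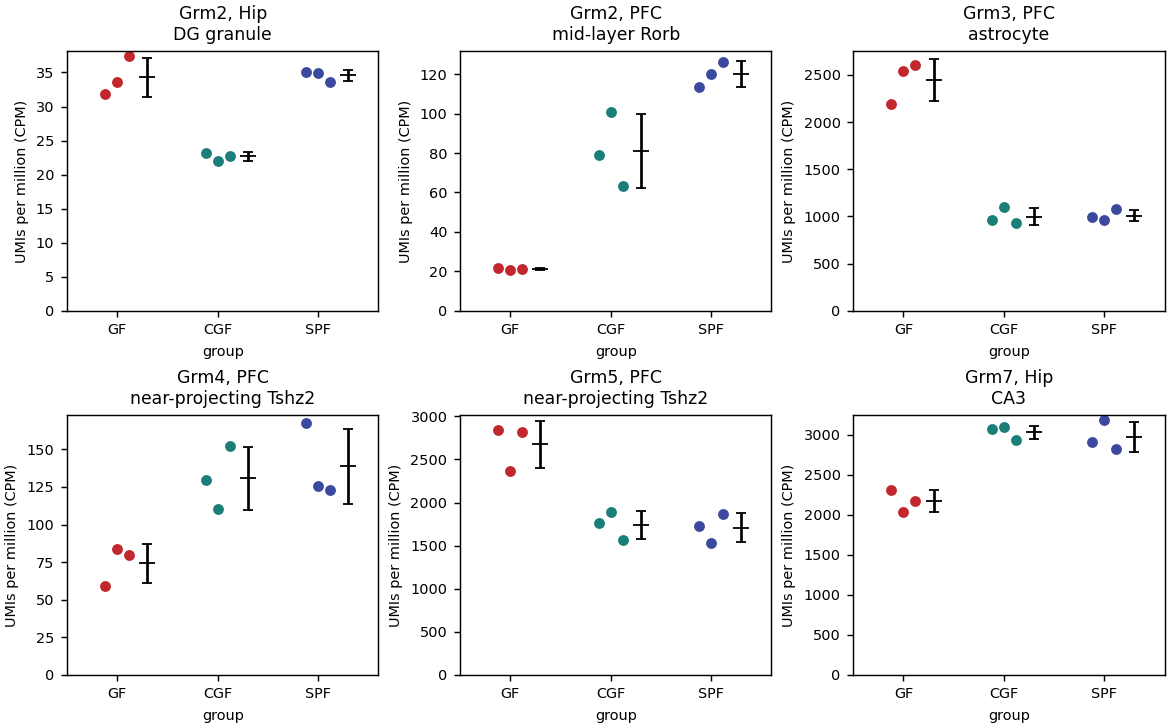
Level (CPM) of 6 gene and cell type pairs in each mouse by group, every axis starting at 0; points are mice, and the bar beside them is the mean with its SD (n = 3). Grm2 in mid-layer Rorb neurons runs from 20.7 to 21.5 CPM in GF mice and from 113 to 126 CPM in SPF mice, Grm3 in PFC astrocytes runs from 2196 to 2604 CPM in GF mice and stays at or below 1096 CPM in the others, and Grm2 in DG granule neurons is lowest in CGF mice.

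In Hip, 26 of 73 tests of GF against SPF passed (35.6%), 1 higher and 25 lower in GF, whereas over all genes and types 28.2% passed, 15.6% higher and 12.5% lower. Grm5, Grm7 and Grm8, the 3 longest members, were each tested in all 15 types and made up 22 of the 25 falls. Grm3, also longer than 100 kb and tested in 15 types, was lower in 1. Grm7 was lower in 11 of 15 types. CA3 neurons had 2309, 2033 and 2175 CPM in GF, 3069, 3093 and 2939 CPM in CGF and 2913, 3190 and 2829 CPM in SPF mice. GF lay below both other groups, by a log2 fold change of -0.65 ± 0.08 to SPF (adjusted P = 1.3e-04). DG granule neurons (-0.46 ± 0.06), CA1 neurons (-0.42 ± 0.08) and Vip interneurons (-0.55 ± 0.15, lost without GF 6 or GF 7) fell as well. With the length and GC correction none of these 4 was called, and DG and CA1 turned direction to 0.04 and 0.03. Astrocytes (-2.15 ± 0.29), microglia (-1.25 ± 0.28) and oligodendrocytes (-1.06 ± 0.17) also fell, beside lower Camk2a and Arpp21 and higher Nrgn in GF mice there.

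Grm5 was lower in GF mice in 7 of 15 Hip types, 4 of them neuronal and 3 glial. CA1 neurons had 2972, 2648 and 2548 CPM in GF, 3565, 3549 and 3526 CPM in CGF and 3635, 3488 and 3256 CPM in SPF mice, a log2 fold change of -0.51 ± 0.09 (adjusted P = 9.2e-04) with no overlap. CA3 neurons differed by -0.56 ± 0.08, DG granule neurons by -0.38 ± 0.05 and Pvalb interneurons by -0.46 ± 0.11. None of these 4 was called with the length and GC correction, under which DG turned direction to 0.08. Grm8 fell in 4 of 15 types, including DG granule neurons (-1.13 ± 0.18) and Cck/Sncg interneurons (-1.53 ± 0.41, kept in 11 of 16 alternatives), and in its leading type, Vip interneurons, GF mice had 1103, 1133 and 1119 CPM and SPF mice 1192, 902 and 1008 CPM, which overlapped.

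These Hip falls moved with the smaller share of long genes in GF Hip libraries, whose part in them was not tested. With the length and GC correction, 9 of the 73 tests passed instead of 26, while over all genes the share that passed went from 28.2% to 14.9%. Grm5 then passed in 1 type instead of 7, Grm7 in 1 instead of 11 and Grm8 in 1 instead of 4. The remaining tests that passed were of Grm2, Grm3 and Grm4, which had 2, 1 and 1 calls before, so the correction also added calls. The DG falls of Grm8 and Grm3 were still called then, at -0.65 and -0.45. Grm3 in DG granule neurons had 35.9, 41.0 and 29.8 CPM in GF, 77.7, 87.4 and 64.5 CPM in CGF and 61.8, 50.0 and 64.7 CPM in SPF mice, a log2 fold change of -0.85 ± 0.14 (adjusted P = 6.4e-04) that passed in 16 of 16 alternatives. In SPF mice the DG means of Grm8 and Grm3, 48.6 and 58.9 CPM, lay below those of microglia, 55.4 and 80.1 CPM.

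**Figure D5:**
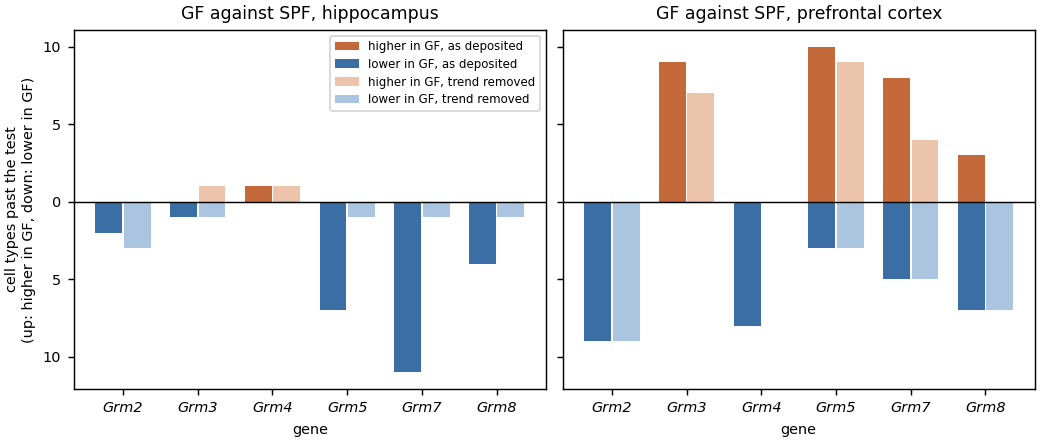
Number of cell types in which each receptor gene passed the test of GF against SPF, upwards where higher and downwards where lower in GF, with the counts as deposited (dark bars) and with the length and GC correction (light bars). In Hip, Grm7 goes from 11 to 1 type and Grm5 from 7 to 1, and in PFC Grm2 stays at 9 while Grm4 goes from 8 to 0. The 9 types of Grm2 include 4, and the 8 of Grm4 include 2, with no GF library above the count filter.

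Grm2 and Grm4 had few calls in Hip. Grm2 was lower in CA3 neurons (-0.80 ± 0.30, adjusted P = 0.049) and oligodendrocytes (-0.92 ± 0.34, adjusted P = 0.049), calls kept in 4 and 5 of 16 alternatives. Its leading type did not follow, since DG granule neurons had 31.9, 33.6 and 37.4 CPM in GF and 35.1, 35.0 and 33.7 CPM in SPF mice, which overlapped. Grm4 was higher in CA3 neurons with 8.59, 6.36 and 9.58 CPM in GF and 4.57, 3.07 and 4.42 CPM in SPF mice (0.83 ± 0.32, adjusted P = 0.048), a call kept in 7 of 16 alternatives. Grm3 in Hip astrocytes had 1506, 1069 and 1589 CPM in GF and 1492, 1817 and 1360 CPM in SPF mice, which overlapped.

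The difference between the regions was tested itself, as the log2 fold change of GF against SPF in Hip minus that in PFC, in the 10 shared types. It passed in 11 of 54 tests (20.4%), 4 positive and 7 negative, at a background of 19.9% over all genes (9.57% positive, 10.4% negative), so the count of members was near the background. Grm3 differed in astrocytes by -1.40 ± 0.23 (adjusted P = 7.5e-05) and in oligodendrocytes by -1.56 ± 0.25 (adjusted P = 6.5e-05), higher in GF in PFC without a called difference in Hip. Grm5 differed in Pvalb (-1.16 ± 0.17), Vip (-0.93 ± 0.19) and Sst interneurons (-0.78 ± 0.23, lost without SPF 30), and Grm7 in Sst (-1.05 ± 0.22) and Vip interneurons (-0.61 ± 0.20). The 4 positive differences were Grm4 in Pvalb (2.05 ± 0.70) and Sst interneurons (1.97 ± 0.51), Grm2 in astrocytes (1.75 ± 0.43) and Grm7 in OPC (1.0 ± 0.23). Those of Grm4 and Grm2 were each lost under alternatives given below. In PFC no GF library reached the count filter for Grm4 in Pvalb interneurons or for Grm2 in astrocytes, so these say little by their direction. The long-gene share of GF libraries, below the other groups in Hip and above them in PFC, moved in the same directions as the 7 negative differences, all of genes longer than 100 kb, and against that of Grm7 in OPC. Its part in these differences was not tested, and the length and GC correction was not run for them.

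CGF and SPF mice both carried a microbiota at sampling, and few of their tests passed. This comparison and the one above share the SPF samples. In Hip 1 of 73 tests passed (1.37%), and over all genes 0.379% passed, 0.247% higher and 0.132% lower in CGF. At an unadjusted P under 0.05 there were 18 of 73, against 9.59% over all genes. Without the filter on low counts 9 of 90 passed, 7 higher and 2 lower in CGF, beside 0.766% over all genes. The count and its direction thus depend on the filter. The one call was Grm2 in DG granule neurons, its leading Hip type, with 23.2, 22.0 and 22.8 CPM in CGF and 35.1, 35.0 and 33.7 CPM in SPF mice. The groups were well apart, and the log2 fold change was -0.55 ± 0.09 (adjusted P = 0.012). It passed in 15 of 16 alternatives and was lost without CGF 18, where 0 of 74 tests passed.

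In PFC 0 of 90 tests of CGF against SPF passed with edgeR and 0 with DESeq2, against a background of 0.142% (0.0717% higher, 0.0698% lower), and 12 had an unadjusted P under 0.05, against 8.57% over all genes. Without CGF 18, 2 tests passed, both lower in CGF. The median SE of these log2 fold changes was 0.203, and 89 of 90 were smaller than 1 in size. The smallest adjusted P was 0.182. Grm2 in its leading type, mid-layer Rorb neurons, had a log2 fold change of -0.58 ± 0.16 (adjusted P = 0.18) and did not pass. Its CGF and SPF values given above did not overlap, but the share of all genes without such overlap was not computed. On simulated counts of upper-layer Cux2 neurons, the GF against SPF test recovered 93.0% of genes changed 2-fold and 44.0% of those changed 1.5-fold, and on those of Sst interneurons 88% and 33%. Of the genes called there, 5.52% and 6.92% had not been changed. CGF against SPF was simulated only without any changed genes, so how well it recovers changes was not measured. The difference of CGF against SPF between the regions passed in 0 of 54 tests with edgeR, against a background of 0%, with 8 at an unadjusted P under 0.05, against 4.83% over all genes.

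GF against CGF shares the GF samples with the first comparison. In PFC 58 of 90 tests passed (64.4%), 31 higher and 27 lower in GF, and over all genes 44.8% passed, 22.7% higher and 22.2% lower. Grm2 was lower in 9 of 9 types tested, Grm3 higher in 9 of 17, Grm4 lower in 6 of 10, Grm5 higher in 11 and lower in 3 of 18, Grm7 higher in 7 and lower in 5, and Grm8 higher in 4 and lower in 4. As above, 4 of the 9 types tested for Grm2 and 2 of the 10 for Grm4 had no GF library above the count filter and say little by their direction. In Hip 33 of 73 passed (45.2%), 2 higher and 31 lower, and over all genes 30.4% passed, 16.5% higher and 13.9% lower. Here the falls included Grm7 in 13 and Grm5 in 10 of 15 types, and 7 of the 73 tests passed with the length and GC correction, under which the share over all genes went from 30.4% to 15.4%. Grm2 in DG granule neurons was higher in GF than CGF mice (0.41 ± 0.09, adjusted P = 0.0022), and this turned to -0.04 with that correction.

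Hip was compared with PFC within each group in the 10 shared types. In SPF mice 29 of 54 tests passed (53.7%), 14 higher and 15 lower in Hip, and over all genes 34.1% passed, 17.2% higher and 16.9% lower. Without SPF 31 the count was 19. In CGF mice 26 passed (48.1%), 17 higher and 9 lower, against 35.2% over all genes (17.8% and 17.4%). With sums thinned to equal UMIs per nucleus, Grm5 passed in 8 of 10 types of CGF mice, and Grm2 and Grm4 in 0 of the 2 types each still tested. Over all genes 32.4% of the tests in CGF mice passed with thinned sums. In GF mice, whose PFC libraries were deeper than the Hip libraries, 10 passed (18.5%), 4 higher and 6 lower, against 2.99% over all genes (1.56% and 1.43%). Without 1 of the GF mice in turn, 5 to 6 tests passed in GF. In CGF and SPF mice the region cannot be told apart from the depth of its libraries or their share of long genes. Genes longer than 100 kb took 60.1% to 64.3% of UMIs in Hip and 47.6% to 52.7% in PFC there. In GF mice they took 49.3% to 52.8% in Hip and 54.6% to 56.3% in PFC. Antisense genes took 1.15% to 1.51% in Hip and 0.458% to 0.561% in PFC of CGF and SPF mice. The length and GC correction was not run between regions, and the part of these shares in the results below was not tested.

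Grm5 was higher in Hip than PFC in 7 of the 10 shared types in SPF mice, 9 in CGF mice and 3 in GF mice, and lower in 0. All 5 interneuron types passed in SPF and CGF mice, whereas in GF mice Pvalb and Sst interneurons and OPC passed. Pvalb interneurons of SPF mice had 3406, 3264 and 2751 CPM in Hip and 1237, 1057 and 1188 CPM in PFC, far apart, with a log2 difference of 1.68 ± 0.12 (adjusted P = 1.5e-11). The same type differed by 1.74 ± 0.12 in CGF and by 0.52 ± 0.12 in GF mice, the last lost without GF 5 or GF 7. OPC differed in Grm5 by 0.91 ± 0.14 in SPF, 1.29 ± 0.14 in CGF and 0.55 ± 0.13 in GF mice, the last again lost without GF 5 or GF 7. Grm4 in Sst interneurons was lower in Hip at 10.9, 4.93 and 15.7 CPM against 79.2, 86.8 and 54.3 CPM in PFC of SPF mice, a log2 difference of -2.72 ± 0.37 (adjusted P = 3.0e-06). In Vip interneurons Grm8 was higher in Hip by 0.61 ± 0.15 in SPF, lost without SPF 30, and by 1.21 ± 0.15 in CGF mice.

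Grm3 in astrocytes changed its order between groups. Hip exceeded PFC by 0.59 ± 0.16 in SPF and 0.76 ± 0.16 in CGF mice, whereas in GF mice Hip was lower by a log2 difference of -0.81 ± 0.16 (adjusted P = 0.0029). The first of these calls was lost without SPF 31 and the last without GF 6. Oligodendrocytes had more Grm3 in Hip by 1.55 ± 0.18 in SPF and 1.58 ± 0.18 in CGF mice.

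Other genes of the pathway were counted by lists, in the same tests of GF against SPF. Grm6, a group III receptor, had 4 UMIs in all Hip libraries and 7 in all PFC libraries and was not tested. In Hip the genes of group I coupling passed in 57 of 150 tests, 3 higher and 54 lower in GF (38% called; median log2 fold change -0.36), beside 28.2% over all genes in Hip, 15.6% higher and 12.5% lower. Genes of glutamate and NAAG supply passed in 43.7% of 126 tests, those of Gi/o and adenylyl cyclase coupling in 27.4% of 274, scaffolds in 23.9% of 155 and partners across the synapse in 8.7% of 23. Prkcb, a protein kinase C, and Gnaq, the alpha subunit of Gq, were each lower in 10 of 15 types and higher in 0. Rgs7, a brake on Gi/o signalling, was lower in 8 of 15 Hip types, and Gng3, a G protein gamma subunit, was higher in 13 and Arrb2, an arrestin, in 5 of 9.

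In PFC the scaffold list, with Homer and Shank genes, passed in 76 of 174 tests, 18 higher and 58 lower (43.7%). Homer1, which binds Grm5, was higher in GF mice in 9 of 18 types (median 0.58), and Shank1 lower in 16 (median -0.65). Genes of Gi/o and adenylyl cyclase coupling passed in 140 of 316 tests, 36 higher and 104 lower (44.3%), led by Adcy1, an adenylyl cyclase, lower in 16 of 18 types (median -1.31), and Adcy5, lower in 13 of 16. Elfn2, a partner of group III receptors across the synapse, was lower in 13 of 14 (median -1.04), while Gnb5 (9 of 16), Trpc1, a channel opened through Gq (13 of 17), and Slc1a1, a neuronal glutamate transporter (8 of 15), were higher. Slc17a7, the vesicular glutamate transporter and itself an excitatory marker of the typing, was lower in 14 of 18 PFC types. Shares of 32.7% to 56.8% among these lists stand beside 45.5% over all genes in PFC.

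Between CGF and SPF mice few tests of the lists passed. In PFC 0 passed with edgeR, beside 0.142% over all genes. In Hip scaffolds passed in 4 of 155 tests (2.58%) and genes of glutamate and NAAG supply in 2 of 126 (1.59%), beside 0.379% over all genes, and the other lists in 0.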

How the data were processed

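UMI counts per gene and nucleus were used as deposited. Per the labels, the authors isolated nuclei from frozen tissue, captured them with a droplet-based 3′ kit and made the counts with CASAVA 1.8 and Cell Ranger on mm10. The study's methods name the Cell Ranger version and an Ensembl annotation, but the intron and strand settings are not given in the sources used here. Nuclei with at least 200 genes and at most 10% mitochondrial UMIs were kept. Each library was clustered (2000 variable genes, 30 components, Leiden resolution 2, leidenalg 0.10.2, scikit-learn 1.9.0), and clusters were named by marker lists. A type was used where each of the 9 libraries of its region held at least 20 of its nuclei.

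UMIs were summed per library and type, so the mouse was the replicate. Each type was fitted in edgeR 4.0.16 (TMM, filterByExpr, quasi-likelihood test), one fit per region with all 3 groups or one fit with all 18 libraries for comparisons between regions, and P was adjusted by Benjamini-Hochberg over all genes tested (threshold 0.05). Every adjusted P in the text comes from this edgeR test. Log2 fold changes carry the SE of the fit. Alternatives were DESeq2 1.42.0, no filter, each nucleus gated on its own markers, likely doublets removed (0.8% per 1000 nuclei), thinned sums, a correction of each library for the length and GC content of genes, 2 groups only, and each mouse left out. Doublets were otherwise kept. On simulated counts with a common spread and 200 changed genes, none of low expected count, GF against SPF in Hip CA1 neurons (14401 genes) recovered 65.0%. In PFC Sst interneurons (8850 genes) it recovered 60.5%.

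Both regions came from the same mouse, so mouse numbers pair the libraries. Deviations of a mouse from its group correlated weakly between its regions, on average 0.0362 to 0.0963 per mouse over 10 types. Genes named besides the receptors were, per region, up to 5 pathway genes that were higher and 5 that were lower in GF against SPF mice in the most types, and the 3 genes most alike each receptor; results for some genes that this rule or the lists name are not reported here. Receptors and lists were chosen with earlier results of these data known. Gene positions are from GENCODE on GRCm38, where 30766 of 30905 genes matched (99.55%), and promoters from RefSeq.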

Additional observations from a re-analysis of the deposited data

Results flagged for a closer look

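The difference of GF against SPF between the regions, Hip minus PFC on the log2 scale, passed the edgeR test in 11 cases in types shared by both regions. Grm5, a group I receptor, differed by -1.159 in Pvalb, -0.9335 in Vip and -0.782 in Sst interneurons, being higher in GF mice in PFC in all 3 and lower in GF mice in Hip Pvalb interneurons. The value in Sst interneurons was no longer called without SPF 30. Grm7 differed by -1.052 in Sst and -0.6086 in Vip interneurons, the last kept in 6 of 13 alternatives, and by 1.0 in OPC. Grm4 went the other way in interneurons, by 1.972 in Sst interneurons (no longer called without SPF 31) and 2.045 in Pvalb interneurons (no longer called without GF 6, GF 7 or SPF 30). No GF library of PFC Pvalb interneurons reached the count filter for Grm4.

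Grm3 differed by -1.403 in astrocytes and -1.565 in oligodendrocytes, and both were called in 13 of 13 alternatives. These 13 leave out the length and GC correction, the gating of single nuclei and the removal of doublets, which were run within regions only. Grm2 differed by 1.748 in astrocytes, no longer called without GF 7 or with thinned sums. No GF library of PFC astrocytes reached the count filter for Grm2. Among neuronal genes in PFC astrocytes and OPC, Camk2a and Arpp21 were lower and Nrgn higher in GF mice, and their part in the Grm2 and Grm7 values of glia was not tested.

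Over all excitatory neurons pooled, 3 receptors met a rule of opposite directions in the regions with no overlap of GF and SPF mice in either. The lack of overlap is thus part of how they were picked. The share of all genes that meet this rule was not computed, and these differences were not tested. The log2 ratio of GF to SPF means was 0.8476 in Hip and -0.6654 in PFC for Grm4 (difference 1.513), -0.3025 and 0.6785 for Grm5 (difference -0.9809), and -0.3247 and 0.4218 for Grm7 (difference -0.7465).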

How the results depend on the processing

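Among 256 calls of a receptor in a type, 3398 of 3843 alternative values kept direction and call, 425 kept the direction but were no longer called and 20 reversed. Without the filter on low counts, more tests were made and 9 passed for CGF against SPF in Hip (7 higher and 2 lower in CGF), 1 in PFC, 18 for the difference of GF against SPF between regions and 18 for Hip against PFC in GF mice. In the same order, 0.766%, 0.422%, 9.73% and 2.33% of the tests over all genes passed without the filter. With the length and GC correction, the Hip tests of GF mice that passed were 9 against SPF and 7 against CGF, beside 14.9% and 15.4% over all genes. Leaving out 1 mouse gave 0 to 2 for CGF against SPF in Hip, 0 to 2 in PFC, 5 to 11 for Hip against PFC in GF mice and 19 to 29 in SPF mice. Shares over all genes were not computed with a mouse left out.

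With mouse as a replicate block, the tests of Hip against PFC that passed were 12 in GF mice, 34 in SPF mice and 29 in CGF mice, with 13 for the difference between regions, against 10, 29, 26 and 11 without it. With the block, 4%, 34.4%, 35.7% and 20.6% of the tests over all genes passed, in the same order. Of 76 calls 75 were kept, and Grm8 in Sst interneurons of SPF mice was lost.

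With the length and GC correction, these log2 fold changes reversed in Hip: Grm2 in DG neurons of GF against CGF (-0.04407), Grm5 in DG neurons against CGF (0.05758) and SPF (0.08264) and in OPC against CGF (0.08074), and Grm7 in CA1 neurons against CGF (0.04175) and SPF (0.02943), in CA2 neurons against CGF (0.0283), in DG neurons against SPF (0.03769) and in oligodendrocytes against CGF (0.0359). In PFC they were Grm4 in layer 6 corticothalamic (0.04661) and mid-layer Rorb neurons (0.006934) against SPF, and Grm8 in layer 5 Fezf2 neurons against CGF (-0.05994) and SPF (-0.2343) and in mid-layer Rorb (-0.09341) and near-projecting neurons (-0.05508) against SPF. With nuclei gated on their own markers, Grm5 in PFC reversed in astrocytes (0.000805) and oligodendrocytes (0.3006) against SPF and in fibroblasts against CGF (-0.2132), and Grm7 in oligodendrocytes against CGF (0.09121). With likely doublets removed, Grm5 in fibroblast, GF vs CGF in PFC, reversed (-0.1257). The cause was not tested.

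The type with the highest level was the same in 11 of 12 cases with gated nuclei and in 12 of 12 without likely doublets. The exception was Grm5 in Hip, where Sst interneurons led instead of CA1 neurons. Leaving GF 6 and CGF 19 out of the Hip Lamp5 levels was chosen after seeing the data. Low counts limit Grm2 and Grm4 in small types.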

Other observations

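The genes whose levels ran most like each receptor over 33 classes of region and type were sought among 13660 genes by Pearson's r of mean log2(CPM + 1). The classes share libraries and depth, so r is a description only. Among the genes most like Grm2 were Dusp14 (0.8443) and Egr3 (0.8172). Grm3 was most like Pacsin3 (0.8279), Spry2 (0.769) and Ppp2r5a (0.7648). Grm4 was most like Pitpnm3 (0.8404), Gm3383 (0.8393) and Chd5 (0.8322). Grm5 was most like Epha5 (0.9065), an ephrin receptor, Atp2b3 (0.8906), a plasma membrane calcium pump, and Fndc9 (0.8626). Grm7 was most like Fam189a1 (0.7506), Arhgap15 (0.7378) and Kcnt2 (0.7138), and Grm8 was most like Cbln2 (0.7814), a synaptic organizer, Hs6st2 (0.7559) and Hs3st2 (0.7532).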
